A study of Mus musculus with 6 samples.

Results

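The stretch described here is a 9 kb interval of mouse chromosome 11, chr11:32128001-32137000 in mm9, that runs from inside the *Mpg* gene up to the first of the 1 kb bins that hold HS-38 and HS-39, a pair of CTCF-binding sites. Its members are the pairs of restriction fragments in Tri-C data with at least 1 fragment midpoint in the interval, whatever the position of the other fragment on chromosome 11. The rule uses no measured value. Over 12 tables the members were 17218 of 151979 distinct fragment pairs, each counted once per viewpoint, and they carried 47980 of 349609 contacts. From the R2 enhancer 2610 of 57777 fragment pairs were members, and from the *Mpg* promoter 14608 of 94202.

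Tri-C captures ligated DNA around a chosen viewpoint and keeps reads that hold the viewpoint and at least 2 further fragments, the reporters, so that each contact is a pair of reporters joined to the viewpoint on the same allele. The 2 genotypes were compared, with 3 biological replicates each: wild type (WT) C57BL/6 mice and D3839 mice, a line made with TALEN and CRISPR-Cas9 that carries short deletions in the core CTCF motifs of both HS-38 and HS-39. All replicates came from spleens of phenylhydrazine-treated female mice, which fill with red cell precursors, and from cells selected with magnetic beads for Ter119, a surface marker of erythroid cells. The animals' age was not given in the sources used here, and contact counts hold no expression by which the cell type could be checked. WT libraries were prepared with the NEBNext Master Mix reagents and D3839 libraries with NEBNext Ultra II, so the preparation and the genotype cannot be told apart in any comparison between them.

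CTCF binds directional DNA motifs and, by halting cohesin as it extrudes loops, sets the borders of contact domains. In erythroid cells HS-38 and HS-39 bind CTCF on the upstream side of the α-globin domain, between the α-globin enhancers and a group of broadly expressed genes. *Mpg* encodes a DNA glycosylase that removes alkylated bases, and *Nprl3* encodes a subunit of GATOR1, an inhibitor of mTORC1 signalling, and carries most of the α-globin enhancers in its introns.

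In the mm9 annotation, *Mpg* runs on the plus strand from 32126505 to 32132700 and *Nprl3* on the minus strand from 32125628 to 32167707. The interval starts 1496 bp downstream of the *Mpg* start, so that 4.7 kb of it lies in *Mpg*, and all 9 kb lie within *Nprl3*. Along it stand the body and 3′ end of *Mpg*, the 3′ exons of *Nprl3* and the *Nprl3* introns between them. The R2 viewpoint bin begins 14 kb beyond its downstream edge. The enzyme NlaIII, which cuts at CATG, divides the interval into 70 fragments. Of these, 64 were seen from each viewpoint, and the 6 that were not measured at most 15 bp. Fragments seen had a median length of 118.0 bp and ranged from 21 to 494 bp.

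The fragments with the most reporter ends are shown because they are the stretches that the captured contacts held most often. Of the 3 leading fragments per viewpoint, those clear of annotated untranslated exons are printed on the plus strand of mm9, with the CATG sites in capitals. The *Mpg* fragment of rank 3 ties with the fragment from 32130852 to 32131012, which lies over an untranslated exon. The R2 fragments lie in *Nprl3* introns, at chr11:32133339-32133558 and chr11:32133697-32133862, and the *Mpg* fragments lie where introns of *Mpg* and *Nprl3* overlap, at chr11:32128914-32129086 and chr11:32128644-32128796.
R2 fragment of rank 2: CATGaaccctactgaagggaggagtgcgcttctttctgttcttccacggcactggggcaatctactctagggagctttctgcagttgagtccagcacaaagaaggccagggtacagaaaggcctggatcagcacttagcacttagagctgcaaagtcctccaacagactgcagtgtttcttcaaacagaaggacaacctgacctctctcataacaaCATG
R2 fragment of rank 3: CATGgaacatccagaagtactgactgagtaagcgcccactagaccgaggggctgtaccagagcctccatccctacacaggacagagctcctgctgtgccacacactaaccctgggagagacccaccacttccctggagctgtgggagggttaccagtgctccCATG
Mpg fragment of rank 2: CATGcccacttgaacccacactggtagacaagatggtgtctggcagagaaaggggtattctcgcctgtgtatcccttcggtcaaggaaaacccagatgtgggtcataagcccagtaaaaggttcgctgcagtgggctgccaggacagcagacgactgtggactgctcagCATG
Mpg fragment of rank 3: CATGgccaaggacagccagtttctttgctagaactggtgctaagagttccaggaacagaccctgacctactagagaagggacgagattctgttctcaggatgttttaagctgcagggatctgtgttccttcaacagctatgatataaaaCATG

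For R2, the fragment at the head of the ranking lay over an *Nprl3* exon from 32136683 to 32136872. It held 33, 7 and 25 reporter ends in WT replicates 1 to 3 and 52, 26 and 53 in D3839. The fragment second in rank held 19, 27 and 28 ends in WT and 31, 39 and 36 in D3839, and the third held 16, 21 and 37 against 39, 38 and 26. Scaled to each matrix, mean shares of the second were 0.121% in WT and 0.114% in D3839, so its higher counts in D3839 went with larger matrices. Mean shares of the third were 0.116% in WT and 0.111% in D3839, and those of the first 0.103% and 0.138%. For *Mpg*, a fragment of 68 bp over an *Mpg* exon, from 32130784 to 32130851, led with 144, 134 and 208 ends in WT and 282, 252 and 296 in D3839. The second held 153, 139 and 179 ends in WT against 312, 247 and 249 in D3839. The third held 137, 122 and 196 against 236, 235 and 223. Its total of 1149 ends was equalled by the fragment from 32130852 to 32131012, so the length share below depends on which is taken. No fragment dominated the interval. The 3 leading fragments took 7.63% of the R2 ends on 6.45% of the interval's length, and 7.31% of the *Mpg* ends on 4.38% of it. Mean shares were higher in D3839 for 53 of 64 fragments from R2, with a median log2 ratio of 0.52, and for 47 of 64 from *Mpg*, with a median of 0.11. The same count was not taken over all fragments of the region, so whether the interval stands out in it is not known. Fragments share libraries and neighbours, and these counts are given as a description only.

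Seen from R2, the interval took a larger share of the contacts in D3839 than in WT. Shares are reporter ends per kb as a percentage of all ends in the region from 32070001 to 32250000, leaving out the bin of the viewpoint and its direct neighbours. In WT the share was 0.377, 0.411 and 0.445% per kb, and in D3839 it was 0.601, 0.592 and 0.560% per kb. The groups did not overlap. Means were 0.411 ± 0.0341% per kb (SD, n = 3) and 0.584 ± 0.0213% per kb (SD, n = 3), a ratio of 1.42, with p = 0.1 in a two-sided exact permutation test, the smallest p that 3 against 3 replicates allow.

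Seen from *Mpg*, whose viewpoint lies just upstream, the interval's share was several times higher. It took 2.88, 2.97 and 2.71% of ends per kb in WT and 3.21, 3.10 and 3.17% in D3839, again without overlap. The means were 2.85 ± 0.136% (SD, n = 3) and 3.16 ± 0.0565% (SD, n = 3), a ratio of 1.11 (two-sided exact permutation test, p = 0.1). The log2 ratio of the *Mpg* share to the R2 share within a replicate was 2.93, 2.86 and 2.60 in WT and 2.42, 2.39 and 2.50 in D3839. It was lower by 0.36 on average in D3839 (two-sided exact permutation test, p = 0.1), and all D3839 ratios lay below all WT ratios. The groups overlapped when each fragment pair was counted once (exact permutation test, p = 0.4) or same-bin contacts were left out (exact permutation test, p = 0.2).

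**Figure D1:**
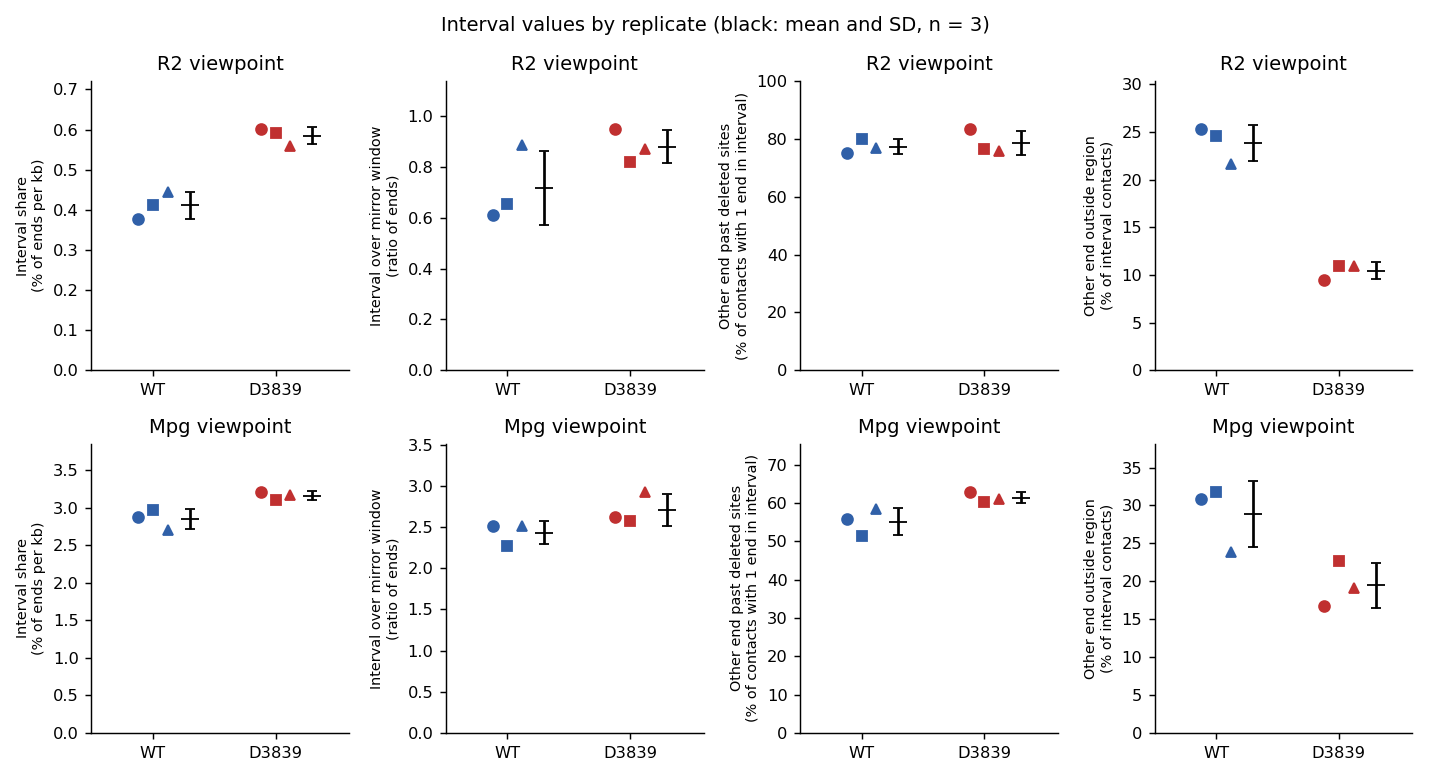
Values of the interval in each replicate for R2 (top) and *Mpg* (bottom), with mean and SD in black (n = 3): share of reporter ends per kb, ratio of ends in the interval to ends in the mirror window, share of other ends past the deleted sites, and share of other ends outside the region. WT is blue and D3839 red, and circles, squares and triangles are replicates 1, 2 and 3. Interval shares of D3839 lie above all WT values for both viewpoints (R2 means 0.584 against 0.411% per kb), while the R2 mirror ratios and R2 partner sides overlap.

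A window of the same size at the same distance on the other side of each viewpoint served as a mirror. For R2 the mirror ran from 32166001 to 32175000 and held the start of *Nprl3* at 32167707. The ratio of interval to mirror ends was 0.611, 0.654 and 0.885 in WT and 0.948, 0.819 and 0.869 in D3839. WT replicate 3 lay among the D3839 values, and the groups overlapped, with means of 0.717 ± 0.147 and 0.879 ± 0.0651 (SD, n = 3; two-sided exact permutation test, p = 0.3). For *Mpg* the mirror ran from 32116001 to 32125000, partly over *Rhbdf1*. The ratio was 2.52, 2.27 and 2.51 in WT and 2.62, 2.58 and 2.93 in D3839, without overlap, with means of 2.43 ± 0.143 and 2.71 ± 0.191 (SD, n = 3; two-sided exact permutation test, p = 0.1). Counting each fragment pair once reduced that difference from 0.275 to 0.0275, with p = 0.5 in the exact permutation test, and p rose to 0.5 without adjacent fragments and to 0.2 without same-bin contacts. Corrected for restriction fragments per bin, the mean *Mpg* ratios were 1.01 in WT and 1.15 in D3839 (exact permutation test, p = 0.1). For R2 the corrected means were 0.298 in WT and 0.331 in D3839 (exact permutation test, p = 0.6).

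Along the interval, both viewpoints saw an uneven profile. The bin from 32132001, which spans the 3′ end of *Mpg* and *Nprl3* exons, was the poorest of the 9 for R2 in WT, at 0.188 ± 0.0629% of ends (SD, n = 3), and from *Mpg* it held 1.44 ± 0.0792% in WT. The bin from 32131001, in the downstream part of *Mpg*, held 0.723 ± 0.117% from R2 and 4.31 ± 0.402% from *Mpg* in WT (SD, n = 3). The number of NlaIII fragments per bin ranged from 5 to 11, and the poorest R2 bin held 7 fragments against 10 in the bin from 32131001.

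Log2 fold changes of D3839 over WT were above 0 in 9 of 9 bins from R2 and in 9 of 9 from *Mpg*. Of all bins tested, 52.6% were above 0 for R2 and 46.0% for *Mpg*. In some alternatives the R2 bin from 32131001 and the *Mpg* bins from 32132001 and 32133001 turned below 0. From R2, 1 of the 9 bins rose in edgeR and 0 fell, where 1.71% of the 175 bins tested rose and 0.571% fell. Before adjustment, edgeR gave a p under 0.05 for 3 interval bins higher and 0 lower, against 18 and 11 of all 175. DESeq2 called 3 higher and 0 lower, where it called 5.14% of all bins higher and 2.86% lower. The bin that rose begins at 32130001 and covers *Mpg* coding exons. It held 0.231, 0.387 and 0.305% of ends in WT and 0.686, 0.708 and 0.695% in D3839. The D3839 replicates lay close together and far above all WT values, with a log2 fold change of 1.18 (SE 0.25, edgeR adjusted p = 0.0189).

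Next in size from R2 were the bin from 32132001 (log2 fold change 0.93, SE 0.34, edgeR adjusted p = 0.159) and the bin from 32134001, over *Nprl3* exons (0.86, SE 0.26, edgeR adjusted p = 0.0887). In both, all D3839 values lay above all WT values. The smallest difference from R2 was in the bin from 32131001, at 0.10 (SE 0.21, edgeR adjusted p = 0.855), next to the bin that rose. The call at 32130001 was lost without WT replicate 1 or without any of the 3 D3839 replicates, with log2 fold changes between 1.02 and 1.37 over the 6 omissions. It was lost too when each fragment pair was counted once, when the log2 fold change fell to 0.50 (edgeR adjusted p = 0.175) and the bins from 32132001 and 32134001 were called instead.

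From *Mpg*, differences along the interval were smaller. Of the 9 bins, 1 rose in edgeR and 0 fell, where 10.2% of the 176 bins tested rose and 9.66% fell. Before adjustment, edgeR gave a p under 0.05 for 2 interval bins higher and 0 lower, against 35 and 38 of all 176. DESeq2 called 2 higher and 0 lower, where it called 18.8% of all bins higher and 18.8% lower. The bin that rose lies in an *Nprl3* intron from 32135001 to 32136000, next to the last bin before the deleted sites. It held 1.25, 1.49 and 1.33% of ends in WT and 1.67, 1.86 and 2.00% in D3839. The groups did not overlap, and the log2 fold change was 0.44 (SE 0.15, edgeR adjusted p = 0.0443). The other 8 bins had log2 fold changes from 0.03 at 32133001 to 0.22 at 32130001. The call was lost without WT replicate 1 or without any of the 3 D3839 replicates. Log2 fold changes over the 6 omissions lay between 0.38 and 0.51. It was lost too when the replicate number was a block in the test, and the bin from 32131001 was called instead. The bin that rose from R2 held 3.76, 4.90 and 3.80% of the *Mpg* ends in WT and 4.92, 4.33 and 5.28% in D3839, which overlap.

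**Figure D2:**
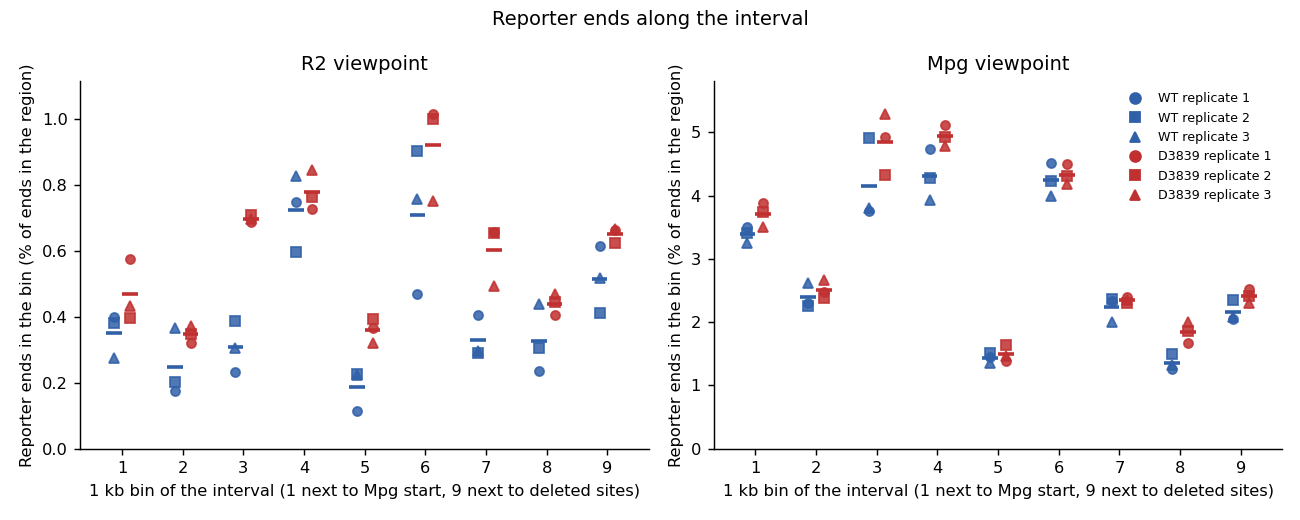
Reporter ends in each of the 9 bins of 1 kb of the interval, as a percentage of all ends in the region, for R2 (left) and *Mpg* (right), with WT in blue, D3839 in red, 1 point per replicate and bars at the group means. From R2, bin 3 stands at 0.231 to 0.387% in WT and 0.686 to 0.708% in D3839, and from *Mpg* bin 8 is the bin whose rise passed the test.

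Where the other end lay was compared over 11 segments of the region, set around its genes, enhancers and CTCF sites, with all pairs of segments tested together. The positions of enhancers and CTCF sites were read from the study's map of the locus to the nearest kb. From R2, 4 of 11 segment pairs with the interval rose and 1 fell, where 18.2% of the 66 pairs tested rose and 7.58% fell. The median log2 fold change was 0.69 over the 11 pairs and 0.23 over all pairs. From *Mpg*, 6 of 10 pairs rose and 1 fell, where 38.2% of the 55 pairs tested rose and 10.9% fell, with medians of 0.79 and 0.50. The *Mpg* promoter segment holds that viewpoint and was left out.

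From both viewpoints, contacts of the interval rose with the 4 kb just past the deleted sites, from 32139001 to 32143000 in *Nprl3*, short of the R1 enhancer. From R2 these contacts made up 0.263, 0.150 and 0.239% of the matrix in WT and 0.603, 0.568 and 0.540% in D3839. All D3839 values lay well above the highest WT value, and the log2 fold change was 1.37 (SE 0.39, edgeR adjusted p = 0.00792). From *Mpg* they made up 1.00, 0.703 and 0.804% in WT and 2.27, 2.26 and 2.03% in D3839, a log2 fold change of 1.38 (SE 0.24, edgeR adjusted p = 2.91e-05). For R2 this segment, like the interval, lies upstream of the viewpoint, and for *Mpg* the interval lies between the viewpoint and the segment.

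Contacts of the interval with the enhancers rose from both viewpoints. R1, an α-globin enhancer, shares a segment with HS-29, a CTCF site that was not deleted, from 32143001 to 32149000. Pairs of the interval with it took 0.473, 0.139 and 0.479% of the R2 matrix in WT and 0.845, 0.882 and 0.552% in D3839, a log2 fold change of 1.04 (SE 0.34, edgeR adjusted p = 0.0205). WT replicate 2 was far below the other WT replicates, and without it the log2 fold change was 0.67 (edgeR adjusted p = 0.142). The R2 call was lost in 4 of 14 alternatives, this omission and that of D3839 replicate 1, 2 or 3. Without those D3839 replicates the log2 fold changes were 0.96, 0.92 and 1.22. From *Mpg* the same pairs took 0.610, 0.537 and 0.430% in WT and 1.15, 1.54 and 0.931% in D3839, with no overlap and a log2 fold change of 1.20 (SE 0.26, edgeR adjusted p = 0.000631).

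The segment from 32149001 to 32172000 holds the enhancers R2, R3, Rm and R4 and the *Nprl3* promoter. From *Mpg*, its pairs with the interval took 0.771, 0.547 and 0.779% of the matrix in WT and 1.38, 2.00 and 1.52% in D3839, a log2 fold change of 1.21 (SE 0.25, edgeR adjusted p = 0.00039). From R2, with the viewpoint's own bins left out, they took 0.484, 0.416 and 0.479% in WT and 0.863, 1.04 and 0.552% in D3839, a log2 fold change of 0.83 (SE 0.32, edgeR adjusted p = 0.0469). D3839 replicate 3 was the lowest D3839 replicate in each of these enhancer pairs from R2, though still above all WT replicates. The R2 call with this segment was lost in 8 of 14 alternatives, among them TMM (0.65, edgeR adjusted p = 0.137) and the omission of WT replicate 2 or 3 or of D3839 replicate 1 or 2.

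With the globin genes the viewpoints differed in what passed. *Hba-x* encodes the embryonic ζ-globin chain. From *Mpg*, pairs of the interval with the *Hba-x* segment, 32172001 to 32181000, took 0.313, 0.391 and 0.430% in WT and 0.770, 0.672 and 0.660% in D3839, a log2 fold change of 0.89 (SE 0.26, edgeR adjusted p = 0.00775). From R2 they took 0.126, 0.0578 and 0.0618% against 0.143, 0.212 and 0.254%, a log2 fold change of 1.31 (SE 0.55, edgeR adjusted p = 0.0664) that rested on 5 to 12 contacts per WT replicate. This R2 pair passed in 3 of 14 alternatives, with DESeq2 (1.19, adjusted p = 0.0424), on the scale of all chromosome 11 contacts (1.76, edgeR adjusted p = 0.00731) and without WT replicate 1 (1.74, edgeR adjusted p = 0.0278). The adult α-globin genes *Hba-a1* and *Hba-a2* lie in the segment from 32181001 to 32200000. From *Mpg*, its pairs with the interval took 1.28, 0.948 and 1.07% in WT and 1.75, 2.26 and 1.82% in D3839, without overlap (log2 fold change 0.82, SE 0.23, edgeR adjusted p = 0.00632). From R2 they took 0.158, 0.763 and 0.347% in WT and 0.410, 0.574 and 0.279% in D3839, where the D3839 values all fell inside the WT range and the log2 fold change was 0.01 (SE 0.37, edgeR adjusted p = 0.99). WT replicate 2 was the highest of the WT values, and over the 6 omissions that fold change ran from -0.37 to 0.70, the latter without WT replicate 2. Whether these changes differ between viewpoints was not tested.

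The bins of the deleted sites themselves, 32137001 to 32139000, adjoin the interval. From *Mpg* their pairs with it rose from 0.947, 0.908 and 0.792% in WT to 1.25, 1.65 and 1.55% in D3839 (log2 fold change 0.75, SE 0.24, edgeR adjusted p = 0.0105). From R2 the values were 0.210, 0.173 and 0.239% in WT and 0.242, 0.321 and 0.205% in D3839, which overlap (log2 fold change 0.29, SE 0.45, edgeR adjusted p = 0.69).

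On the upstream side no pair passed the test from either viewpoint, though some passed in alternatives. With the segment of *Snrnp25*, which encodes a protein of the minor spliceosome, and *Rhbdf1*, an inactive rhomboid protein, the log2 fold change was 0.69 from R2 (SE 0.45, edgeR adjusted p = 0.266) and 0.24 from *Mpg* (SE 0.21, edgeR adjusted p = 0.321). Both passed as rises on the scale of all chromosome 11 contacts, with edgeR adjusted p = 0.0345 for R2 and edgeR adjusted p = 0.00293 for *Mpg*. With the *Mpg* promoter segment, R2 gave 3, 10 and 8 contacts in WT and 24, 34 and 19 in D3839, with a log2 fold change of 1.27 (SE 0.59, edgeR adjusted p = 0.11) and no overlap in shares. It passed on the chromosome scale (edgeR adjusted p = 0.0146) and without WT replicate 2 (1.76, edgeR adjusted p = 0.0487). The farthest upstream segment had log2 fold changes of -0.53 from R2 (SE 0.60, edgeR adjusted p = 0.58) and -0.42 from *Mpg* (SE 0.26, edgeR adjusted p = 0.175). The *Mpg* pair passed as a fall in 5 of 14 alternatives, among them TMM (-0.84, edgeR adjusted p = 0.015) and the omission of WT replicate 3 (-0.70, edgeR adjusted p = 0.00621).

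The segment pair that fell from both viewpoints was the one with the flank downstream of the globin genes, 32200001 to 32250000. From R2 it took 0.463, 0.231 and 0.401% of the matrix in WT and 0.155, 0.164 and 0.137% in D3839, a log2 fold change of -1.27 (SE 0.44, edgeR adjusted p = 0.0261). From *Mpg* it took 3.37, 3.03 and 2.11% in WT and 2.00, 2.04 and 1.67% in D3839, a log2 fold change of -0.57 (SE 0.22, edgeR adjusted p = 0.0314). Neither fall passed when all chromosome 11 contacts set the scale. The R2 call was also lost when each fragment pair was counted once (-0.82, edgeR adjusted p = 0.0841) and without WT replicate 1 or 3 or any D3839 replicate, and the *Mpg* call without WT replicate 1 or 2 or any D3839 replicate. Over the 6 omissions the log2 fold change ran from -1.50 to -1.08 for R2 and from -0.75 to -0.43 for *Mpg*.

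Of all the segment pairs with the interval, contacts with both ends in it were the most numerous. From *Mpg* they made up 19.3, 20.8 and 19.5% of the matrix in WT and 21.5, 18.9 and 21.5% in D3839, with overlap and a log2 fold change of 0.05 (SE 0.12, edgeR adjusted p = 0.739). From R2 they took 2.08, 2.60 and 2.70% in WT and 3.60, 3.08 and 3.52% in D3839, a log2 fold change of 0.46 (SE 0.18, edgeR adjusted p = 0.0469). That call was lost in 9 of 14 alternatives, among them TMM (0.29, edgeR adjusted p = 0.238), single counting of fragment pairs (0.27, edgeR adjusted p = 0.167) and the omission of any replicate but WT replicate 3. Per kb of partner, the interval's contacts from *Mpg* ran at 2.21% within itself in WT, 0.209% with the 4 kb past the deleted sites and 0.0579% with the adult α-globin genes. In D3839 the same densities were 2.29%, 0.546% and 0.102%.

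**Figure D3:**
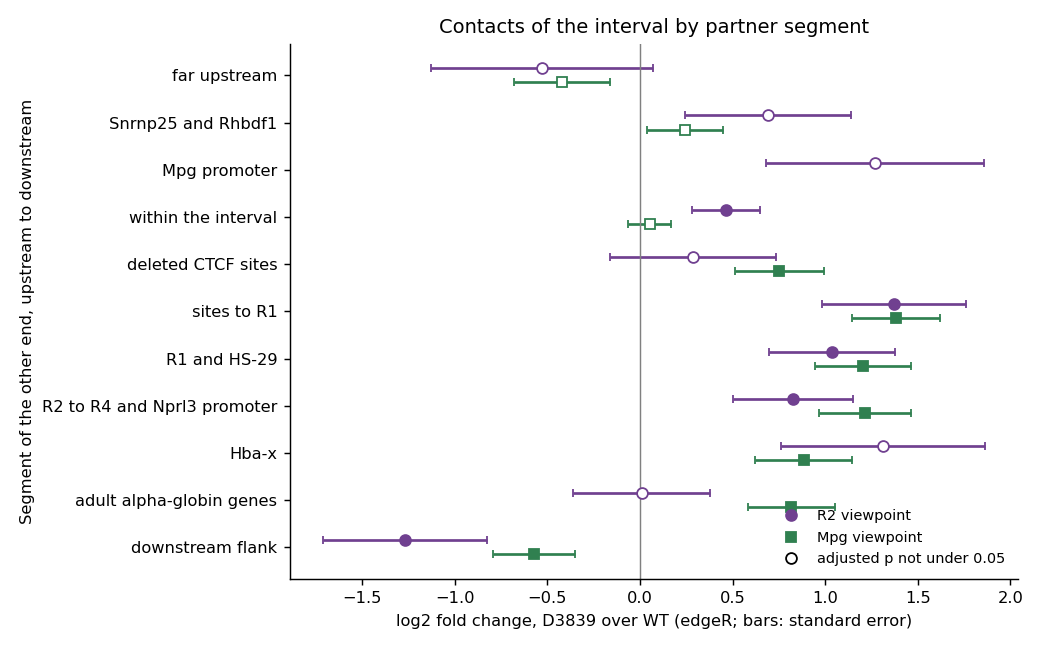
Log2 fold change (D3839 over WT) of contacts between the interval and each segment, ordered from upstream to downstream, for R2 (purple circles) and *Mpg* (green squares). Bars are standard errors derived from the edgeR F statistic. Filled symbols passed the test, and the rises with the segment between the deleted sites and R1 stand at 1.37 for R2 and 1.38 for *Mpg*.

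These calls depended on the scale and on single replicates. TMM and DESeq2 scaling each left 3 of the 6 *Mpg* rises, those with the segments from 32139001 to 32172000, and each called 2 falls in place of 1. Of all 55 *Mpg* pairs, 16.4% rose and 18.2% fell with TMM, and 14.5% rose and 20% fell with DESeq2. From *Mpg*, 5 rises were left without WT replicate 1 or without D3839 replicate 2, where 29.1% and 23.6% of all 55 pairs rose. From R2, no segment pair of the interval passed without D3839 replicate 1 or without D3839 replicate 2, as 0 of all 66 pairs did, when the log2 fold changes with the 4 kb past the deleted sites were 1.33 and 1.38. Scaling to all chromosome 11 contacts moved the median of all pairs from 0.23 to 0.69 for R2 and from 0.50 to 0.97 for *Mpg*, and with it the interval's rises and falls to 7 and 0 for R2 and to 8 and 0 for *Mpg*, where 43.9% and 65.5% of all pairs rose.

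The *Snrnp25* and *Rhbdf1* segment, the next one upstream of the *Mpg* promoter, gave values beside those of the interval. From *Mpg* its log2 fold changes were 0.63 with the 4 kb past the deleted sites (SE 0.25, edgeR adjusted p = 0.039), 1.15 with R1 and HS-29 (SE 0.26, edgeR adjusted p = 0.00111) and 1.02 with the adult α-globin genes (SE 0.25, edgeR adjusted p = 0.00203), beside 1.38, 1.20 and 0.82 for the interval. With the downstream flank it was -0.57 (SE 0.23, edgeR adjusted p = 0.0419), as for the interval. From R2 it was 1.30 with R1 and HS-29 (SE 0.34, edgeR adjusted p = 0.00367) and 0.80 with the adult α-globin genes (SE 0.32, edgeR adjusted p = 0.0476), beside 1.04 and 0.01 for the interval, the latter of unsettled sign. Also from R2, it was 0.52 with the 4 kb past the deleted sites (SE 0.56, edgeR adjusted p = 0.553), beside 1.37 for the interval, and 0.77 with the downstream flank (SE 0.38, edgeR adjusted p = 0.124), beside -1.27. With the segment that holds R2 to R4 it was 1.07 from *Mpg* (SE 0.25, edgeR adjusted p = 0.00134), beside 1.21 for the interval. From R2 it was 0.77 with that segment (SE 0.30, edgeR adjusted p = 0.0469), beside 0.83 for the interval. Differences between the segments were not tested.

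Tiles of 3 kb, of which 3 cover the interval, gave a finer view. From *Mpg*, 5 of 159 tile pairs with the interval rose and 0 fell, where 0.629% of the 795 pairs tested rose and 1.13% fell. The 5 pairs that rose were all that rose in the region. Interval tile pairs called higher were 2 with TMM, with DESeq2 or without adjacent fragments, where 0.252%, 0.252% and 0.254% of all pairs were. They were 1 without D3839 replicate 1, without D3839 replicate 2 or with a minimum of 30 counts, where 0.126%, 0.126% and 0.263% were. Before adjustment, 27 of the 159 had an edgeR p under 0.05 with higher values and 3 with lower ones, against 77 and 38 of all 795. The smallest p belonged to the tile from 32134001, at the downstream end of the interval, with the tile from 32140001, past the deleted sites. It held 13, 10 and 20 contacts in WT and 62, 88 and 69 in D3839, a log2 fold change of 1.86 (SE 0.45, edgeR adjusted p = 0.00782). The tile from 32128001, in *Mpg*, with the same partner held 25, 6 and 33 contacts against 101, 77 and 88, a log2 fold change of 1.61 (SE 0.40, edgeR adjusted p = 0.00957). The tile from 32131001 with the tile of the deleted sites, from 32137001, held 65, 27 and 31 against 119, 185 and 118, a log2 fold change of 1.24 (SE 0.32, edgeR adjusted p = 0.0111).

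From R2, 0 of 77 tile pairs with the interval rose and 0 fell in edgeR, where 0% of the 590 pairs tested rose and 0% fell. Before adjustment, 6 of the 77 had an edgeR p under 0.05 with higher values and 2 with lower ones. Of all 590, 45 and 23 did. DESeq2 called 0 of the 77 in either direction, where it called 0% of all 590 higher and 0.508% lower. Simulated tables of these sizes had independent features and a fixed dispersion that was not estimated from these data. There edgeR recovered 15 of 40 tile pairs changed 3-fold for R2 and 10 of 40 for *Mpg*. Most changes of that size were thus missed at this resolution in the simulation, and the rate in these data may differ. The median log2 fold change was 0.66 over the 77 R2 pairs against 0.18 over all, and 0.17 over the 159 *Mpg* pairs against 0.25 over all.

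**Figure D4:**
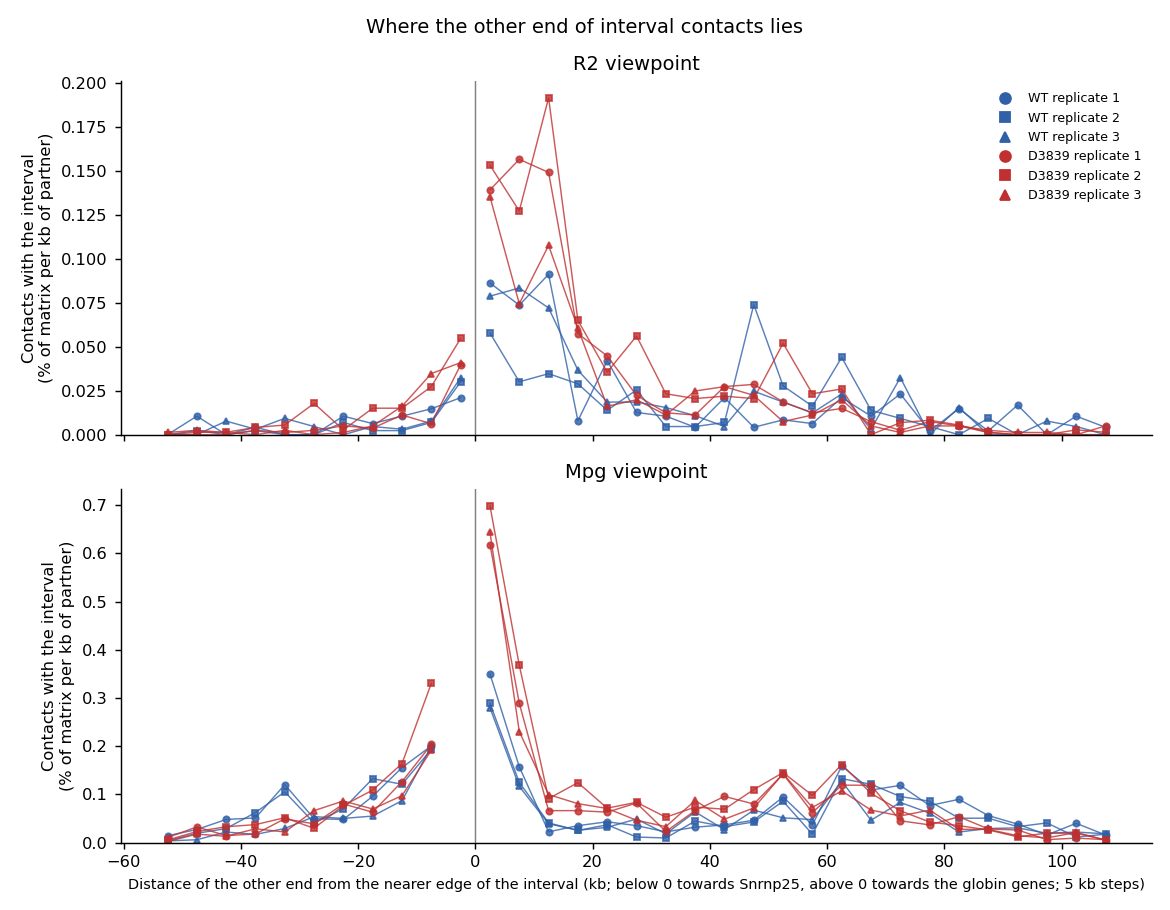
Contacts between the interval and 5 kb steps on either side, as a percentage of the matrix per kb of partner counted, by distance from the nearer edge of the interval, for R2 (top) and *Mpg* (bottom), with 1 line per replicate, WT in blue and D3839 in red. Bins around a viewpoint are left out, and in the first step downstream the *Mpg* lines of D3839 start at 0.618 to 0.699% per kb and those of WT at 0.280 to 0.350% per kb.

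Counted by side, contacts with 1 end in the interval and the other elsewhere in the region lay past the deleted sites in 55.8, 51.4 and 58.3% of cases in WT from *Mpg* and in 62.9, 60.2 and 61.0% in D3839. The groups did not overlap, with means of 55.2 ± 3.47% and 61.4 ± 1.37% (SD, n = 3; two-sided exact permutation test, p = 0.1), but overlapped when the last kb was left out (exact permutation test, p = 0.3). From R2, which itself lies past those sites, the shares were 75.1, 80.0 and 76.9% in WT and 83.4, 76.7 and 76.0% in D3839, which overlap (two-sided exact permutation test, p = 0.7), and the sign of that difference turned when adjacent fragments or the last kb were left out.

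Many interval contacts reached outside the region. From R2 the other end lay elsewhere on chromosome 11 in 25.3, 24.5 and 21.7% of interval contacts in WT and 9.46, 10.95 and 10.97% in D3839 (means 23.8 ± 1.91 and 10.5 ± 0.867%, SD, n = 3; two-sided exact permutation test, p = 0.1). From *Mpg* it did so in 30.9, 31.8 and 23.9% in WT and 16.7, 22.6 and 19.1% in D3839 (means 28.8 ± 4.33 and 19.5 ± 2.98%, SD, n = 3; two-sided exact permutation test, p = 0.1). Both falls went with the region as a whole. Among contacts with an end in the region but none in the interval, the same share ran from 24.0 to 28.5% for WT and from 13.5 to 17.4% for D3839 from R2, and 29.5 to 39.6% against 24.0 to 30.1% from *Mpg*. Contacts with both ends in the region made up 46.0 to 48.2% of chromosome 11 contacts in WT and 63.1 to 66.9% in D3839 from R2, and 32.8 to 41.2% against 49.4 to 53.8% from *Mpg*. The part that the different library preparation has in this was not tested.

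Neighbouring NlaIII fragments can stay joined without ligation. Pairs of adjacent fragments made up 23.3, 27.4 and 27.1% of interval contacts in WT from R2 and 27.2, 20.3 and 28.5% in D3839, and from *Mpg* 25.5, 28.8 and 35.1% in WT and 29.7, 22.6 and 29.0% in D3839. The groups overlapped for both viewpoints (two-sided exact permutation tests, p = 0.9 and p = 0.6). Counted once per fragment pair, the groups lay apart, with means of 12.9% in WT and 8.75% in D3839 from R2 and 2.59% and 1.71% from *Mpg* (two-sided exact permutation tests, p = 0.1 each). With adjacent pairs left out, the interval share was still higher in D3839 by 0.176% per kb from R2, where it was 0.173 with them, and by 0.370% per kb from *Mpg*, where it was 0.307, with the smallest p of the exact permutation test, 0.1, in each case.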

How the data were processed

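The authors deposited, for each viewpoint and replicate, unnormalized counts of unique contacts, each between a pair of NlaIII fragments of chromosome 11 (mm9). By the study's methods and the submitters' processing notes, reads were trimmed with Trim Galore and aligned with Bowtie (versions not given in the sources used here) in the CCseqBasic pipeline, which removed duplicates and spurious ligations. All 347950 fragment names matched an in silico digest of mm9. Fragments were placed in bins by midpoint.

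Matrices held 8651 to 16115 contacts for R2 and 10237 to 18951 for *Mpg*. Contacts of a read are not independent. Bins, segment pairs and tile pairs with at least 10 counts were tested with edgeR 4.0.16 (quasi-likelihood test, matrix total as library size, Benjamini-Hochberg over all features of a viewpoint, threshold 0.05) in R 4.3.3, and shares by exact permutation in scipy 1.17.1. On simulated data with 3-fold changes and the same fixed dispersion, edgeR recovered 35 of 40 bins and 8 of 10 segment pairs for R2, and 40 of 40 and 10 of 10 for *Mpg*. These rates hold for that setting and may differ in these data. DESeq2 1.42.0, TMM, other filters and scales, and omitted replicates were alternatives. The members and lists were chosen with earlier results of these data known. Named were all bins and segment pairs, for each viewpoint the 3 tile pairs per direction with the smallest p past the threshold and groups apart, and the 3 fragments with most ends.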

Additional observations from a re-analysis of the deposited data

How the results depend on the processing

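With 3 replicates per genotype the exact tests cannot go below p = 0.1, so the shares rest on their sizes and on the lack of overlap. Corrected for restriction fragments, the interval share differed by 0.0855 for R2 and 0.155 for *Mpg*, with groups apart in both, and the R2 mirror ratio by 0.0329. On the scale of all chromosome 11 contacts the mean R2 share was 0.194% per kb in WT and 0.378% in D3839. The *Mpg* share was 1.05% and 1.63% per kb, a difference of 0.580. Interval bins called higher on this scale were 7 (R2) and 9 (*Mpg*), where 20.6% and 35.8% of all bins were. Segment pairs called higher were 7 for R2 (43.9% of all), and tile pairs 4 and 18 (3.39% and 4.15% of all). The interval's segment pairs called lower were 0 for both, where 0% and 1.82% of all pairs were. In the following, percentages in brackets are the shares of all features called the same way. Counting each fragment pair once gave an *Mpg* mirror difference of 0.0275, an R2 adjacent share difference of -4.19, differences outside the region of -15.2 (R2) and -14.4 (*Mpg*), bins higher of 2 (other than the 1 named for R2) and 4 (4.07% and 13.1%), lower segment pairs of 0 and 2 (6.25% and 16.4%), and 9 *Mpg* tile pairs (2.26%). Without adjacent fragments the differences outside the region were -18.1 and -14.4, the R2 partner side -0.0657, R2 bins higher 2 (6.40%), *Mpg* segment pairs lower 2 (14.5%) and *Mpg* tile pairs 2 (0.254%). Without the last kb the R2 partner side was -2.20. DESeq2 gave bins 3 for R2 (5.14%) and 2 for *Mpg* (18.8%), *Mpg* segment pairs 3 higher (14.5%) and 2 lower (20%) and tile pairs 2 (0.252%). TMM gave *Mpg* bins 2 (14.8%), segment pairs 2 for R2 (9.09%) and 3 for *Mpg* (16.4%) higher and 2 lower for *Mpg* (18.2%), and tile pairs 2 (0.252%). A minimum of 30 counts gave R2 segment pairs 2 (11.3%) and *Mpg* tile pairs 1 (0.263%).

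Correlations between deviations of same-numbered replicates of the genotypes ran from -0.09 to 0.10 for R2 and from -0.12 to 0.20 for *Mpg*. For differently numbered replicates they ran from -0.13 to 0.13 and from -0.19 to 0.15. With 3 same-numbered pairs per viewpoint, these values cannot tell whether such replicates were handled together. With a replicate block, 3 interval segment pairs rose for R2 (16.7%) and 6 for *Mpg* (41.8%), with 1 bin each (2.29% and 5.11%; for *Mpg* the bin from 32131001 in place of 32135001), and the exact sign-flip test of same-numbered replicates gave p = 0.25 for both interval shares, its smallest value.

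Leaving out each replicate, the share difference ran from 0.156 to 0.190 (R2) and from 0.234 to 0.368 (*Mpg*), the mirror difference from 0.109 to 0.246 and from 0.165 to 0.341, the partner side from -1.02 to 2.68 and from 4.33 to 7.76, the adjacent share from -2.20 to 1.93 and from -4.87 to -0.0711, the share outside from -14.5 to -12.6 and from -11.9 to -7.92, and *Mpg* over R2 from -0.46 to -0.29. Calls ran from 0 to 1 bins for R2 (0 to 2.86%) and 0 to 2 for *Mpg* (0.568 to 18.2%), from 0 to 4 (0 to 19.7%) and 5 to 6 (23.6 to 38.2%) segment pairs higher, from 0 to 1 (0 to 6.06%) and 0 to 2 (3.64 to 12.7%) lower, and for *Mpg* tile pairs from 1 to 4 higher (0.126 to 0.755%) and 0 to 1 lower (0.377 to 1.13%). Among single features that were not called, the R2 pair with the adult α-globin genes turned to -0.17 (TMM), -0.17 (DESeq2), -0.10 (no adjacent fragments), -0.37 and -0.12 (without WT replicates 1 and 3) and -0.28 (without D3839 replicate 2), in a range up to 0.70 over omitted replicates. From *Mpg*, the *Snrnp25* and *Rhbdf1* pair turned to -0.19 (TMM) and -0.24 (DESeq2), contacts within the interval to -0.35 (TMM) and -0.41 (DESeq2), and the farthest upstream pair to 0.086 on the chromosome scale. The *Mpg* bin 32132001 turned to -0.17 (no adjacent fragments), -0.094 (pairs once) and -0.0083 (without D3839 replicate 2, in a range to 0.11 over omitted replicates), the *Mpg* bin 32133001 to -0.011 (pairs once) and -0.014 (without WT replicate 3, in a range to 0.076), and the R2 bin 32131001 to -0.017 (without WT replicate 2, in a range to 0.21). The cause of these moves was not tested.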

Other observations

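The spacing of contacts with both ends in the interval was compared after the data had been seen. From R2, contacts 3 to 5 bins apart made up 3.54, 2.22 and 4% of those contacts in WT and 5.18, 8.65 and 7.05% in D3839, and contacts 6 to 8 bins apart 1.52, 0.444 and 0.286% against 2.76, 1.77 and 2.47%. The groups did not overlap in either class (two-sided exact permutation tests, p = 0.1 each). In WT replicates 1 to 3 from R2, 198, 225 and 350 contacts had both ends in the interval. The class 6 to 8 bins apart thus rested on very few WT contacts. From *Mpg*, contacts 3 to 5 bins apart made up 7.07, 5.12 and 4.43% in WT and 7.25, 10.8 and 8.29% in D3839 (exact permutation, p = 0.1), while those 6 to 8 bins apart overlapped (exact permutation, p = 0.4). Adjacent fragments made up 67.7, 63.1 and 67.7% of contacts within the interval in WT and 59.8, 55.7 and 59.1% in D3839 from R2, and 61.4, 66.0 and 67.3% against 59.3, 55.5 and 58.6% from *Mpg* (exact permutation, p = 0.1 each). In the mirror windows the share of adjacent fragments overlapped between genotypes for both viewpoints (exact permutation, p = 0.8 for R2 and 0.3 for *Mpg*). Contacts 6 to 8 bins apart did not overlap in the *Mpg* mirror window, with 0.966, 0.360 and 0.177% in WT and 2.33, 2.06 and 1.80% in D3839 (exact permutation, p = 0.1). No correction was made for these 10 comparisons in the interval and 10 in the mirror windows.

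Among R2 tile pairs, the one that joins both ends of the interval, the tile from 32128001 with the tile from 32134001, held 3, 1 and 2 contacts in WT and 17, 12 and 26 in D3839 (edgeR adjusted p = 0.199). It was singled out after its values were seen. Its contacts fall in the wider spacing classes above, so it is no separate observation.

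Across the 64 fragments seen, Spearman's rho between fragment length and reporter ends was 0.40 for R2 and 0.08 for *Mpg*, and between the ends seen from R2 and from *Mpg* it was 0.27. The fragments share libraries and neighbours, so these are descriptions.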
